A study of Mus musculus with 4 samples.

Results

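Transcripts of very long genes were analysed with stranded RNA sequencing in immortalized mouse embryonic fibroblasts (MEF), fibroblasts grown from the bodies of C57BL/6 embryos at embryonic day 15.5. A transcript was counted as a very long gene when its gene body, the stretch of genome from its start to its end, covered at least 200000 bases, when its exons were shorter than that stretch, and when it reached at least 0.5 RPKM in at least 1 library. RPKM is a read number scaled to exon length and to library depth. With 1 transcript per gene, the one with the longest gene body, 544 of 11734 genes or unnamed loci with a spliced transcript at this RPKM limit were very long, and the other 11190 served as shorter genes. Before the limit there were 1036 very long genes, of which 492 stayed under 0.5 RPKM in every library and 143 were at 0 in all 4. There were 4 libraries, 1 per condition: *Hmga2*+/+ (labelled wild type) and *Hmga2*-/- (labelled Hmga-/-) MEF, each given water (Ctrl) or human recombinant TGFB1 at 10 ng/ml and harvested after 24 h, all following starvation overnight in medium with 1% FCS. The comparisons ask how TGFB1, a cytokine that activates fibroblasts, changed transcript levels in each genotype, and how the genotypes differed in each treatment. How many embryos or cultures stand behind a line is not given in the sources used here, so genotype and culture cannot be told apart. The table holds 1 RPKM column per condition, so differences could not be set against a replicate spread and p-values were not computed. Below, values of 1 gene stand in the order *Hmga2*+/+ Ctrl, *Hmga2*+/+ TGFB1, *Hmga2*-/- Ctrl and *Hmga2*-/- TGFB1, a gene "rose" or "fell" when its RPKM differed at least 1.5-fold, and intervals are 95% exact intervals that cover counting error only.

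RNA polymerase II needs many minutes to hours to cross a gene body of this length, most of which is intron, and it relies on elongation factors and on topoisomerases that relieve the torsion it builds up. Very long genes are known for adhesion molecules, receptors, ion channels and developmental transcription factors, many of them best studied in neurons. Several span common fragile sites, regions where chromosomes tend to break when replication is disturbed. HMGA2 is a chromatin protein that binds the minor groove of AT-rich DNA.

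*Hmga2*, whose own gene body is shorter, had 14.8, 40.7, 0 and 0 RPKM, so it was at 0 in both libraries labelled Hmga-/-. The libraries held 56140000 to 57290000 mapped reads, derived from the RPKM steps, and 11 of 12 fibroblast markers reached 1 RPKM in every library. The 6 epithelial markers summed to at most 1.04 RPKM and the 5 blood markers to at most 1.66, nearly all of it *Cd68*. The 5 skeletal muscle markers stayed under 0.1 RPKM in all 4. The 5 endothelial markers summed to 1.14, 4.53, 1.47 and 7.47 RPKM, nearly all of it *Kdr*, while *Pecam1*, *Cdh5*, *Tie1* and *Emcn* stayed under 0.1 RPKM. The 6 neural markers summed to 1.27, 3.07, 1.28 and 4.51 RPKM, mostly *Tubb3*, with *Rbfox3* and *Sox10* at or near 0. Both sums were higher in the TGFB1 libraries, and their part in the results on very long genes was not tested. Since these are bulk samples, fewer cells of a type and less RNA per cell cannot be told apart.

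Of the 544 very long genes, 528 overlapped a protein-coding GENCODE gene, 3 a processed transcript, 2 a lincRNA, and 11 had no GENCODE gene. Their gene bodies had a median of 291551 bases and reached 2270658 bases in *Ptprd*, and 86 of them covered 500 kb or more. Their exons added up to a median of 5262 bases, against 2808 bases for shorter genes. Their mean RPKM over the 4 libraries had a median of 4.10, against 6.29 for shorter genes. The highest library of a very long gene held a median of 1505 reads, and 8 of them had fewer than 50 reads in every library. In 464 of the 544 the limit of 0.5 RPKM was reached in every library, and the other 80 entered through 1 to 3 of the libraries. Just inside the length limit stood *Pcbp3* (200093 bases), *Umad1* (200181) and *Glis1* (200340), and just outside *Atp9b* (199917), *Clec16a* (199539) and *Mical3* (199476). At the RPKM limit, *Unc13b* and *Dtna* entered with 0.502 RPKM in their highest library, and *Dmd*, the dystrophin gene, stayed out with 0.498.

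Reads were counted over exons, so a very long transcript also collects reads from exons that it shares with shorter transcripts of its gene. No shorter spliced transcript was listed for 167 of the 544 genes, and in 215 a transcript under 200000 bases held at least 50% as many reads as the long one. In addition, 18 of the 544 overlapped another very long gene on the same strand. These include 7 protocadherin alpha genes, *Pcdha1* to *Pcdha7*, which share their constant exons, and the pair *Iqschfp* and *Schip1*. Their values are not independent, and reads on a shared exon cannot be assigned to 1 of them.

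A RefSeq start site within 5 bases of the transcript's own start, on the same chromosome and strand, was found for 316 of the 544 very long genes. Their promoters, 250 bases before to 50 bases after the start (RefSeq, GRCm38.p6, the same coordinates as mm10), were GC-rich, with a median GC content of 65.7%, against 61.7% for 7281 shorter genes and 52.7% for all 32851 promoters of the table. Below are the promoters of 2 genes that rose and 2 that fell under TGFB1 in both genotypes and whose shorter transcripts held none or at most 19.7% (*Kif26b*) as many reads as the long one. *Kif26b* (chr1:178528875-178529174, plus strand), a kinesin family gene, and *Chst11* (chr10:82985247-82985546, plus strand), which adds sulfate to chondroitin, rose. *Hmcn1* (chr1:150993386-150993685, minus strand), which encodes the large matrix protein hemicentin-1, and *Galnt13* (chr2:54436137-54436436, plus strand), which starts O-linked glycans, fell. Each is written 5′ to 3′ on the strand of the gene, and capitals mark CCAAT or its reverse complement ATTGG, the only one of the 4 motifs searched that these windows hold.
Kif26b: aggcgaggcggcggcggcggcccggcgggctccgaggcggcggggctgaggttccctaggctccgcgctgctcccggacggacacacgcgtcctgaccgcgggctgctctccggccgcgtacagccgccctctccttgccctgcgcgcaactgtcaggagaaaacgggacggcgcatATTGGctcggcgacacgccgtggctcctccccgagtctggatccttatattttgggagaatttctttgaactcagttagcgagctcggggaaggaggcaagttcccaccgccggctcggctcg
Chst11: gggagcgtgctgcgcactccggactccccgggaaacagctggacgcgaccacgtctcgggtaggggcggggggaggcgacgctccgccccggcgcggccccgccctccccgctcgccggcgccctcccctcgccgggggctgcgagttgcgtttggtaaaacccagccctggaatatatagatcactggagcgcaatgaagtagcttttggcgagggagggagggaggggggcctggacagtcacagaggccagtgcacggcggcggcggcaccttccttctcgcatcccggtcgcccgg
Hmcn1: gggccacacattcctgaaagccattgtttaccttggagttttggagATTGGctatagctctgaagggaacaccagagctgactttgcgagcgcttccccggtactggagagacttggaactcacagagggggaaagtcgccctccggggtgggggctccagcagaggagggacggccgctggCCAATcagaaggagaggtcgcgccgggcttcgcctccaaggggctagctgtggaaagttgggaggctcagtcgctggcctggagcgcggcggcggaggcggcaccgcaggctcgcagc
Galnt13: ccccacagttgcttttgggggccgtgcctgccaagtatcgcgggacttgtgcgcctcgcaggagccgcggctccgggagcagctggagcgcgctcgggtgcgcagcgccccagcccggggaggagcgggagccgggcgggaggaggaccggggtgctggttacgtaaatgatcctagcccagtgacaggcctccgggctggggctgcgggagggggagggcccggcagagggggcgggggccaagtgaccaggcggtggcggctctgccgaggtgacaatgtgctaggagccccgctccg

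*Kif26b* holds 1 CCAAT match and *Hmcn1* holds 2, while *Chst11* and *Galnt13* hold none of the 4 motifs on either strand. The motifs, searched on both strands, were TGANTCA (the AP-1 element), CAGACA (which holds the SMAD-binding CAGA box), CCAAT and TATAAA, none of which contains another. Over the matched promoters of very long genes, 3.797% held TGANTCA, 11.1% CAGACA, 34.2% CCAAT and 5.06% TATAAA. The shares over all promoters of the table were 7.81%, 21.0%, 37.4% and 13.6%, and over matched shorter genes 4.49%, 15.04%, 40.2% and 6.47%. CAGACA stood in 9 of 42 promoters of very long genes that rose under TGFB1 in *Hmga2*+/+ MEF, in 10 of 81 that fell and in 16 of 193 that did neither. In *Hmga2*-/- MEF the numbers were 8 of 39, 11 of 99 and 16 of 178. Among matched shorter genes in *Hmga2*+/+ MEF, CAGACA stood in 149 of 837 that rose (17.8%) and in 208 of 1295 that fell (16.1%). In *Hmga2*-/- MEF it stood in 169 of 944 (17.9%) and 186 of 1159 (16.0%). For very long genes the shares were 21.4% and 12.3% in *Hmga2*+/+ and 20.5% and 11.1% in *Hmga2*-/- MEF, from few promoters. A match is a description of letters and was not tested against binding.

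Under TGFB1 more very long genes fell than rose in both genotypes. In *Hmga2*+/+ MEF 75 of 544 rose (13.8%) and 147 fell (27.0%), where over all 11734 genes 11.7% rose and 19.3% fell. In *Hmga2*-/- MEF 63 rose (11.6%) and 175 fell (32.2%), against 13.2% and 17.7% of all genes. Very long genes had a median log2 change of −0.18 (*Hmga2*+/+) and −0.23 (*Hmga2*-/-), and all genes −0.070 and −0.0086. Without very long genes that overlap each other, 135 of 526 fell in *Hmga2*+/+ (25.7%) and 166 in *Hmga2*-/- MEF (31.6%). The share that fell was thus above the background in both genotypes, and the share that rose lay near it.

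The counting interval lay below 0 for 143 of the 147 that fell in *Hmga2*+/+ and for 172 of the 175 that fell in *Hmga2*-/- MEF. Since a gene that reached 0.5 RPKM only in the library where it is high had to differ, the shares were also taken over genes at the limit in all 4 libraries. Among those 464 very long genes 21.6% fell in *Hmga2*+/+ and 26.3% in *Hmga2*-/- MEF, against 15.3% and 13.3% of 10181 shorter genes. The genotypes' TGFB1 comparisons share no library. Of the very long genes that fell in *Hmga2*+/+ MEF, 127 (86.4%) also fell in *Hmga2*-/- MEF, which is 72.6% of those that fell there. For shorter genes these shares were 74.9% and 83.1%. Of those that rose, 55 did so in both, 73.3% of the *Hmga2*+/+ and 87.3% of the *Hmga2*-/- number, against 83.6% and 73.3% of shorter genes. Of the 222 very long genes past 1.5-fold in *Hmga2*+/+ MEF, 0 were past it in the other direction in *Hmga2*-/- MEF, and of 3417 shorter genes 10 were (0.293%).

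**Figure D1:**
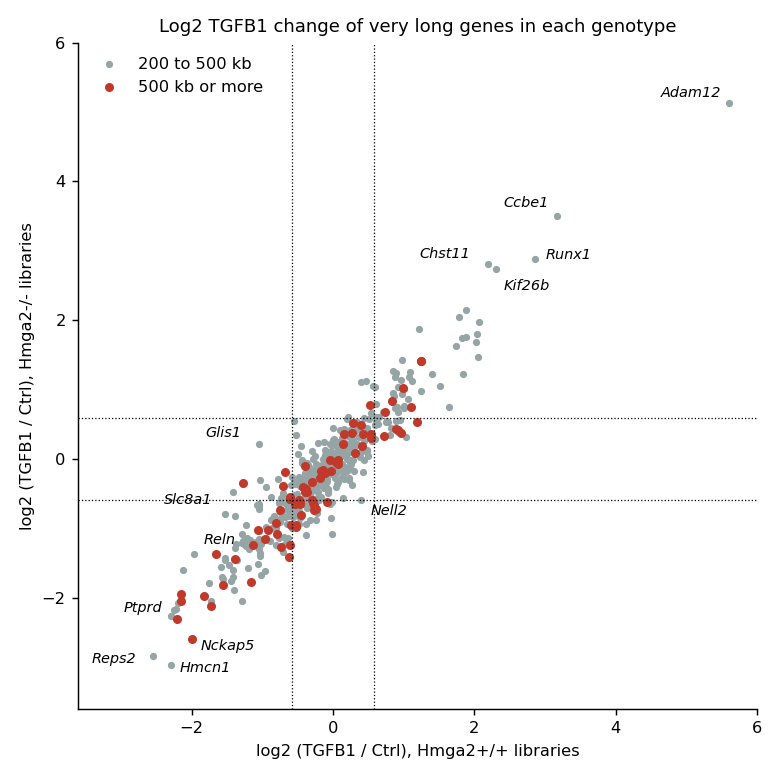
Log2 TGFB1 change of the 509 very long genes with a mean of at least 0.5 RPKM, in the *Hmga2*+/+ libraries (x axis) and the *Hmga2*-/- libraries (y axis). Each point is 1 gene, red for gene bodies of 500 kb or more, and dotted lines mark 1.5-fold. Points spread along the diagonal from *Adam12* at the upper right to *Hmcn1* and *Reps2* at the lower left, and no gene is past the lines in opposite directions.

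The largest increase in both genotypes was that of *Adam12* (uc009kdp.2, chr7:133883199-134225097, minus strand), a membrane-bound metalloprotease of fibroblasts and muscle precursors. It had 0.642, 31.2, 0.986 and 34.7 RPKM, so both Ctrl libraries were low and both TGFB1 libraries high, with log2 changes of 5.603 (interval 5.43 to 5.78) in *Hmga2*+/+ and 5.14 (5.00 to 5.28) in *Hmga2*-/- MEF. *Ccbe1*, which encodes a secreted protein needed for lymphatic vessel growth, had 0.892, 8.05, 1.18 and 13.3 RPKM. Its log2 changes were 3.17 and 3.50. The transcription factor *Runx1* (uc007zzj.3, chr16:92601466-92826074, minus strand) had 1.17, 8.46, 1.71 and 12.6 RPKM, with log2 changes of 2.86 and 2.88. A *Runx1* transcript of 95863 bases held 169% as many reads as the very long one, with log2 changes of 2.87 and 2.81, so *Runx1* reads cannot be assigned to 1 of these forms.

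*Kif26b* (uc007dvh.2, chr1:178529125-178932857, plus strand) had 1.15, 5.67, 0.912 and 6.10 RPKM, 4.94-fold and 6.69-fold higher under TGFB1. *Chst11* (uc007gke.1, chr10:82985497-83195891, plus strand) had 1.10, 5.00, 1.01 and 7.10 RPKM, 4.55-fold and 7.04-fold higher. For *Chst11* no shorter spliced transcript was listed, and its TGFB1 libraries stood apart from each other, with the *Hmga2*-/- one 1.42-fold the *Hmga2*+/+ one. *Rasal2*, which encodes a GTPase-activating protein for RAS, had 3.72, 15.3, 4.31 and 15.1 RPKM, and *Btbd11* had 0.975, 4.10, 1.16 and 4.57. The adhesion molecule *Ncam1* had 7.70, 28.4, 7.89 and 34.9 RPKM, and *Rap1gap2*, which encodes a GTPase-activating protein for RAP1, had 0.739, 2.54, 0.853 and 3.54. In all 4 of these genes each TGFB1 library was above each Ctrl library. *Npas3*, a transcription factor gene, entered by an exon length of 313 bases only, with 4, 17, 5 and 14 reads, and its interval in *Hmga2*+/+ MEF ran from 0.44 to 4.09.

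Among the decreases, *Hmcn1* (uc007cyj.1, chr1:150562502-150993435, minus strand) had 6.64, 1.35, 6.10 and 0.778 RPKM with log2 changes of −2.29 (interval −2.38 to −2.21) in *Hmga2*+/+ and −2.97 (−3.08 to −2.86) in *Hmga2*-/- MEF. *Reps2* (uc009uue.2, chrX:162411952-162643658, minus strand), whose product takes part in endocytosis of growth factor receptors, had 0.908, 0.155, 0.872 and 0.122 RPKM, with log2 changes of −2.55 and −2.84. It reached the limit only in the Ctrl libraries, so that lower TGFB1 values were fixed by the limit. With a pseudocount of 0.1 its log2 changes were −1.98 and −2.13. The most abundant gene among the large decreases was *Abi3bp* (uc007zmq.2, chr16:56477846-56690135, plus strand), which encodes an extracellular matrix protein. It had 96.7, 19.7, 74.6 and 15.6 RPKM, 4.91-fold lower under TGFB1 in *Hmga2*+/+ and 4.80-fold lower in *Hmga2*-/- MEF. *Ptprd* (uc008tjm.2, chr4:75941237-78211895, minus strand), a receptor-type tyrosine phosphatase gene and the longest of all, had 2.94, 0.640, 2.33 and 0.472 RPKM. Its log2 changes were −2.20 and −2.30, and a *Ptprd* transcript of 192645 bases with 89.5% as many reads changed by −2.14 and −2.25. The very long *Ptprd* transcript with the highest mean RPKM changed further, by −2.85 and −3.28.

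*Galnt13* (uc012bvm.1, chr2:54436387-55117744, plus strand) had 19.1, 4.32, 15.3 and 3.71 RPKM, and *Slc24a3*, an exchanger of sodium and potassium for calcium, had 9.85, 2.12, 9.34 and 2.08. No shorter spliced transcript was listed for either, and both Ctrl libraries of each gene were more than 3-fold above both TGFB1 libraries. *Mir99ahg*, the host transcript of a microRNA cluster, had 6.67, 1.46, 6.38 and 1.52 RPKM and *Ptprq*, another receptor-type phosphatase, 1.46, 0.308, 1.52 and 0.335. *Ptprq* reached the limit only in the Ctrl libraries, so that its lower TGFB1 values were fixed by the limit. *Nckap5* had 2.76, 0.690, 3.88 and 0.643 RPKM, so that its Ctrl libraries differed between genotypes and its TGFB1 libraries hardly did. *Pcdh9*, a protocadherin, had 6.65, 2.01, 4.59 and 1.06 RPKM, and its genotype difference passed 1.5-fold only under TGFB1. Its log2 changes under TGFB1 were −1.72 and −2.12.

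**Figure D2:**
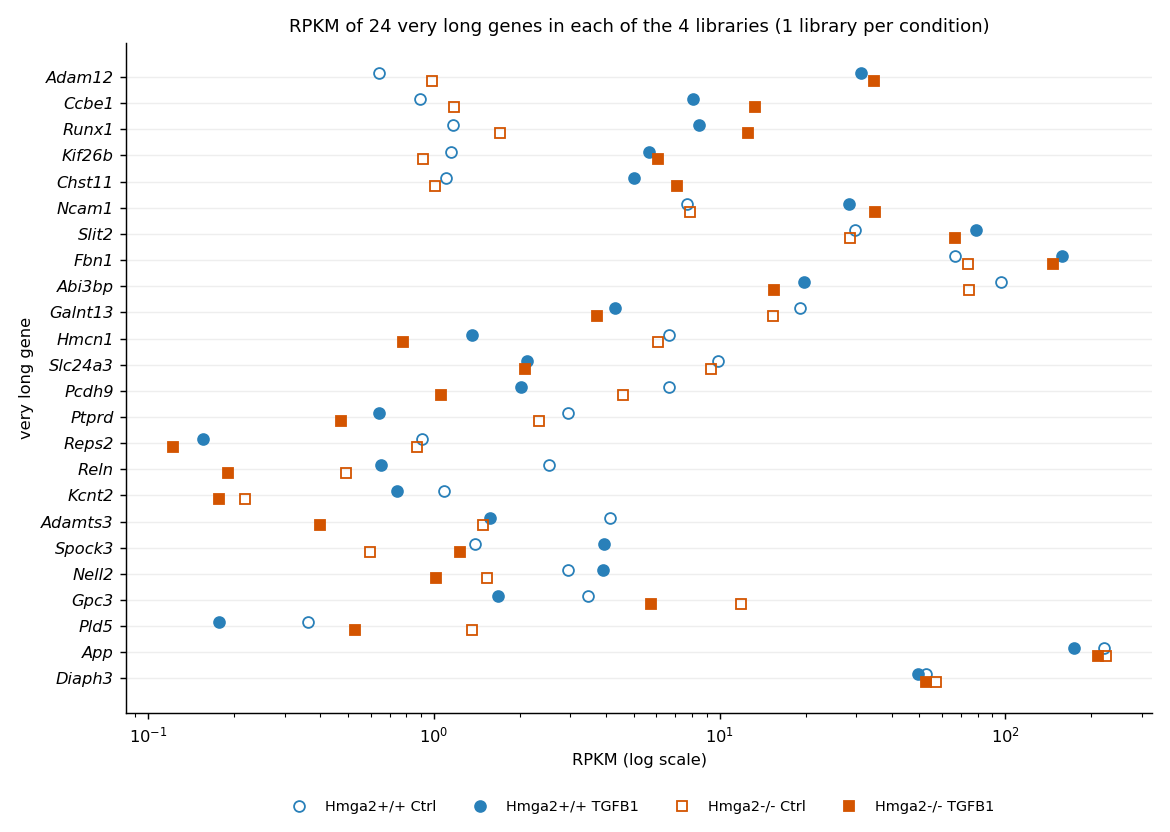
RPKM (log scale) of 24 very long genes in each of the 4 libraries, circles for *Hmga2*+/+ and squares for *Hmga2*-/-, open for Ctrl and filled for TGFB1, with 1 library per condition. For *Adam12* to *Fbn1* both filled symbols lie to the right of both open ones, for *Abi3bp* to *Reps2* to the left, while for *Gpc3* and *Pld5* the squares lie to the right of the circles of the same treatment. *App* and *Diaph3* vary little.

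The share of genes that fell under TGFB1 changed with the length of the gene body, and it was highest in the longest class. In *Hmga2*+/+ MEF 25.6% of genes under 5 kb fell, 16.0% of those of 50 to 100 kb, 18.8% of those of 100 to 200 kb, 24.9% of very long genes of 200 to 500 kb and 38.4% of the 86 of 500 kb or more. In *Hmga2*-/- MEF the same classes gave 20.5%, 15.7%, 20.3%, 29.9% and 44.2%. The course was not one-sided in length, since the shortest genes also fell more often than those of 20 to 100 kb. These classes were not weighted to the same RPKM. Their median RPKM was 3.29 at 500 kb or more, 4.20 at 200 to 500 kb and 7.98 at 50 to 100 kb. The weighting given below takes all very long genes together. The share that rose ranged only from 11.1% to 15.1% over all classes in *Hmga2*+/+ MEF and from 10.5% to 13.9% in *Hmga2*-/- MEF. The median log2 change of genes of 500 kb or more was −0.39 and −0.48, that of genes of 200 to 500 kb −0.13 and −0.20. Of the 86 longest, 25 fell in both genotypes and 8 rose in both, among the latter the overlapping pair *Iqschfp* and *Schip1*. *Gm42416*, *Gm37013* and *Gm37388* each fell in *Hmga2*+/+ MEF only, by a log2 change of −0.60. Their values were nearly the same in every library, so they may not be separate measurements.

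**Figure D3:**
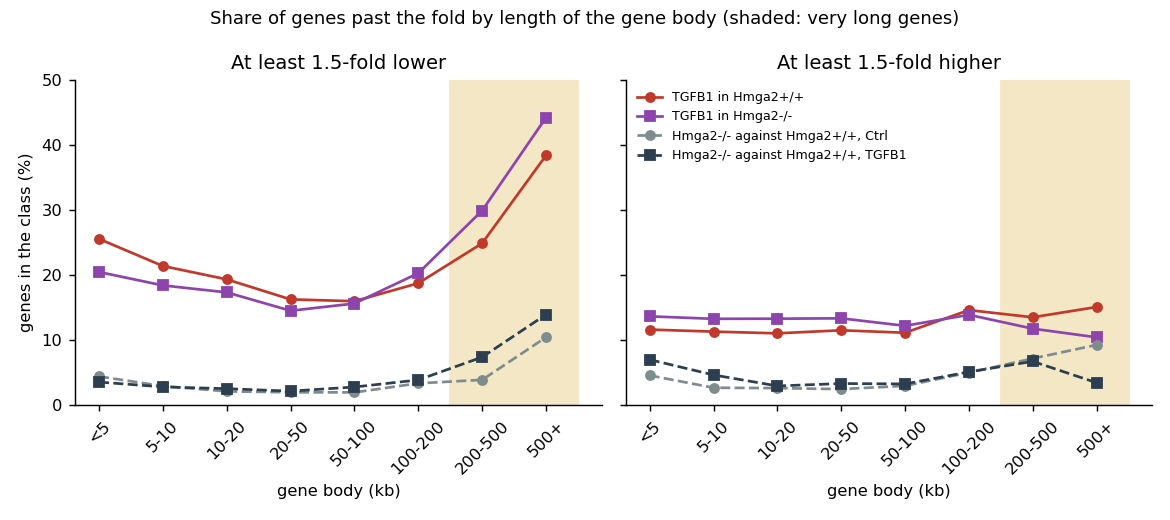
Share of genes at least 1.5-fold lower (left) and higher (right) in each class of gene body length in kb, for the 4 comparisons, with very long genes shaded. The share lower under TGFB1 is smallest between 20 and 100 kb and largest at 500 kb or more in both genotypes, while the share higher under TGFB1 stays between 10.5% and 15.1%.

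Very long genes were expressed at lower levels than shorter ones, and weakly expressed genes passed 1.5-fold more often, so shorter genes were also weighted to the RPKM distribution of the very long genes, in bins of 0.5 log2 units. Weighted in this way 22.8% of shorter genes fell in *Hmga2*+/+ MEF, against 27.1% of the very long genes in the same bins, a difference of 4.26 percentage points. In *Hmga2*-/- MEF 20.7% of weighted shorter genes and 32.0% of very long genes fell, a difference of 11.4 points. The medians of the log2 change differed by −0.056 and −0.17. For increases the differences were 2.35 points in *Hmga2*+/+ and −1.42 points in *Hmga2*-/- MEF, the latter turning to 1.49 at a 2-fold threshold and to 1.79 with no limit on RPKM. The excess of decreases was thus smaller than without weighting in both genotypes, where it was 8.12 and 15.1 points, and at a 2-fold threshold the weighted excess in *Hmga2*-/- MEF was 6.51 points. Without very long genes that overlap each other, the weighted excess of decreases was 3.02 points in *Hmga2*+/+ and 10.9 points in *Hmga2*-/- MEF. No replicate spread stands behind these differences.

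The excess was not found at every level in *Hmga2*+/+ MEF. Below 1 RPKM 44.2% of very long and 46.4% of shorter genes fell, and between 5 and 10 RPKM 10.8% and 13.7% did. Between 10 and 30 RPKM 21.3% of the 122 very long genes fell, against 9.14% of shorter genes. In *Hmga2*-/- MEF a larger share of very long genes fell in each of the 6 bins, from 50% against 45.2% below 1 RPKM to 23.0% against 8.33% between 10 and 30 RPKM. The highest bin, at 30 RPKM or more, held only 12 very long genes, of which 2 fell in each genotype.

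**Figure D4:**
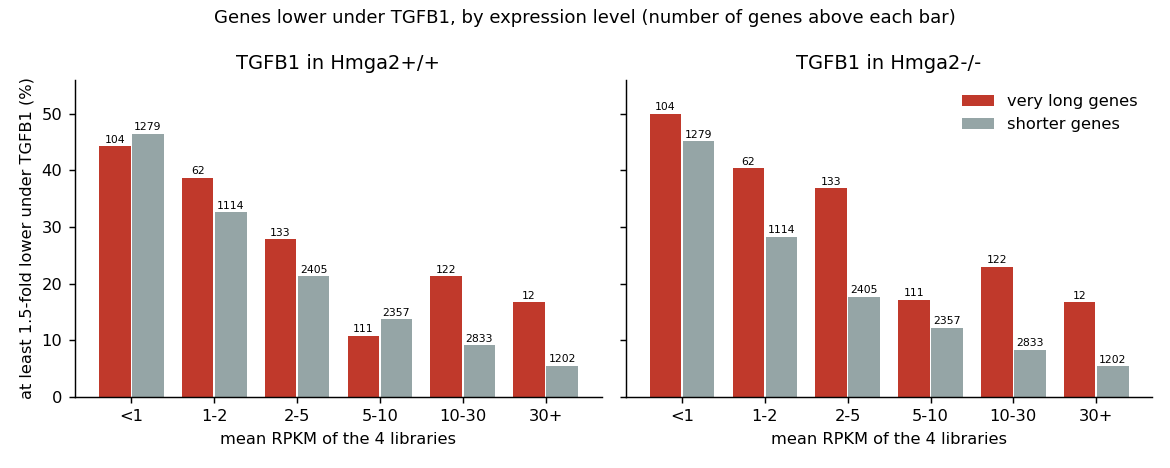
Share of very long genes (red) and shorter genes (grey) at least 1.5-fold lower under TGFB1, by mean RPKM of the 4 libraries, with the number of genes above each bar, in *Hmga2*+/+ (left) and *Hmga2*-/- (right) MEF. In *Hmga2*+/+ MEF the red bar is lower than the grey one below 1 and between 5 and 10 RPKM, and in *Hmga2*-/- MEF it is higher in all 6 bins.

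Decreases were also frequent where no shorter spliced transcript of the same gene was listed. Transcripts of other genes could still add reads there. *Gm42416*, *Gm37013* and *Gm37388*, for which none was listed, had nearly the same values, with *Gm42416* at 14.6, 9.61, 15.4 and 10.4 RPKM. Of the 167 very long genes with no shorter spliced transcript in the table, 32.3% fell in *Hmga2*+/+ and 37.1% in *Hmga2*-/- MEF, against 25.6% and 29.8% of the 215 whose shorter transcript held at least 50% as many reads. In between, 26.5% and 35.3% of the 34 with under 10% and 22.7% and 28.9% of the 128 with 10 to 50% fell, so the share was lowest in this last class. Where the shorter transcript held at least 50%, that of 52 of the 55 genes that fell in *Hmga2*+/+ MEF fell too, and in 60 of 64 in *Hmga2*-/- MEF. Such pairs of transcripts share exons and are not independent measurements.

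The very long genes were grouped by function into lists, which together named 272 of the 544. The lists do not hold every gene of their kind, and some genes stand in more than 1 list. Their counts stand beside a background over all genes of 19.3% that fell and 11.7% that rose in *Hmga2*+/+ MEF, and of 17.7% and 13.2% in *Hmga2*-/- MEF. Since the lists hold very long genes only, the shares over all 544 of these are a nearer background. Of the 544, 27.0% fell and 13.8% rose in *Hmga2*+/+ MEF, and 32.2% and 11.6% in *Hmga2*-/- MEF. Among the 56 transcription and chromatin factors, 19 fell and 5 rose in *Hmga2*+/+ MEF, and 27 fell and 5 rose in *Hmga2*-/- MEF, with median log2 changes of −0.44 and −0.54 beside −0.070 and −0.0086 over all genes. Those that fell in both genotypes numbered 17 and included the nuclear factor I genes *Nfib* (39.9, 19.2, 33.7 and 11.8 RPKM) and *Nfia* (4.86, 1.65, 4.95 and 1.41). Also among them were the Hedgehog effectors *Gli2* and *Gli3*, with log2 changes of −1.05 and −1.16 and of −0.64 and −0.93. *Sox6*, with 0.240, 0.0860, 0.589 and 0.153 RPKM, reached the limit only in *Hmga2*-/- Ctrl, the library where it was highest, so that a difference there was fixed by the limit. The 4 of the list that rose in both were *Cux1*, *Runx1*, *Runx2*, a regulator of bone formation, and *Hdac9*, a histone deacetylase gene. The list leaves out other transcription factor genes, among them *Npas3*. *Runx2* had 4.03, 7.25, 3.67 and 7.12 RPKM and *Hdac9* 0.215, 0.638, 0.156 and 0.761, which entered only through its TGFB1 libraries. The 3 most abundant of the list passed 1.5-fold in 1 genotype at most, and *Foxp1*, a forkhead factor, had 23.2, 33.3, 21.4 and 36.7 RPKM, *Tcf4* 32.2, 27.8, 29.1 and 21.0 and *Tcf12* 25.9, 29.1, 26.4 and 31.0.

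Of 19 genes listed for extracellular matrix, 8 fell and 4 rose in *Hmga2*+/+ MEF, and 10 fell and 4 rose in *Hmga2*-/- MEF. The list leaves out *Abi3bp*, which fell in both genotypes, and *Spock3*, which rose in both. Of the list, 42.1% and 52.6% fell, where 19.3% and 17.7% of all genes did, and 21.1% rose in each, where 11.7% and 13.2% of all genes did. All 4 listed genes that rose did so in both genotypes. They were *Fbn1*, which encodes fibrillin-1 of microfibrils, the proteases *Adamts12* and *Adamts6*, and the collagen gene *Col25a1*, which reached the limit only in the TGFB1 libraries. *Fbn1* (uc008mco.1, chr2:125300594-125506438, minus strand) had 66.6, 158, 74.0 and 146 RPKM, 2.37-fold and 1.98-fold higher, and *Adamts12* had 2.05, 4.76, 2.46 and 9.04. The basement membrane collagen *Col4a5* fell from 7.10 to 2.105 and from 8.53 to 2.48 RPKM. *Ltbp1*, which binds latent TGFB1, had 19.5, 27.7, 20.9 and 31.1 RPKM and *Fndc3b* 16.6, 18.4, 16.6 and 22.5, both under 1.5-fold in both genotypes, although *Ltbp1* passed it in *Hmga2*-/- MEF for its very long transcript with the highest mean RPKM (log2 change 0.60, against 0.58).

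Of 13 genes for proteoglycans and glycan synthesis, 2 rose and 5 fell in each genotype, and they were the same 7 genes. Those that rose were *Chst11* and *Ext1*, a polymerase of heparan sulfate chains that had 21.3, 46.2, 24.8 and 54.2 RPKM. Those that fell were *Galnt13*, the glypicans *Gpc3* and *Gpc6*, *Csgalnact1*, which starts chondroitin chains, and the heparan sulfate sulfotransferase *Hs6st3*, which reached the limit only in *Hmga2*-/- Ctrl. *Gpc6* had 5.31, 2.03, 5.33 and 1.961 RPKM. The related sulfotransferase *Hs6st2* had 13.7, 16.2, 16.1 and 21.4 RPKM and passed 1.5-fold in neither genotype.

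Of 26 adhesion and guidance genes, 7 fell and 5 rose in *Hmga2*+/+ MEF and 12 fell and 3 rose in *Hmga2*-/- MEF. The guidance ligand *Slit2* (uc012dwb.3, chr5:47983155-48307736, plus strand) had 29.8, 79.0, 28.5 and 66.9 RPKM, 2.65-fold and 2.34-fold higher, and its receptor gene *Robo2* had 3.94, 8.49, 6.00 and 10.1. The semaphorins *Sema3a*, *Sema3d* and *Sema3e*, secreted guidance cues, fell in both genotypes, with *Sema3a* at 21.0, 13.5, 19.2 and 11.6 RPKM. *Cadm2*, a synaptic adhesion molecule, had 0.870, 0.208, 0.315 and 0.0830 RPKM and reached the limit only in *Hmga2*+/+ Ctrl. *Plxdc2* (38.5, 35.6, 29.97 and 31.3) and *Cdh2*, N-cadherin (20.3, 24.7, 29.1 and 31.2), passed 1.5-fold in neither.

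Among 37 genes of the actin cytoskeleton and adhesion sites, 8 fell and 6 rose in *Hmga2*+/+ and 9 and 4 in *Hmga2*-/- MEF, with medians of −0.016 and −0.12. *Palld*, which encodes the actin cross-linker palladin, had 13.98, 21.4, 16.6 and 28.8 RPKM and rose in both, *Diaph3*, a formin, had 52.9, 49.4, 57.4 and 52.9, and *Utrn*, utrophin, had 26.9, 21.0, 29.96 and 20.6. Of 32 regulators of small GTPases 5 fell and 4 rose in *Hmga2*+/+ and 7 and 2 in *Hmga2*-/- MEF. *Dock1*, *Asap1* and *Trio*, the most abundant of them, stayed within 1.5-fold in all comparisons, with *Dock1* at 22.2, 23.4, 22.2 and 22.1, *Asap1* at 21.0, 29.4, 25.6 and 28.2 and *Trio* at 17.2, 22.6, 20.0 and 21.5 RPKM. Of 42 genes of kinase, phosphodiesterase and calcium signalling, 11 fell and 5 rose in *Hmga2*+/+ and 12 and 2 in *Hmga2*-/- MEF. *Stk3*, a kinase of the Hippo pathway, fell in both with 25.9, 16.4, 28.6 and 18.2 RPKM, while *Fer* (29.8, 32.8, 34.8 and 29.2) and the growth hormone receptor gene *Ghr* (20.9, 19.2, 18.4 and 21.8) did not pass 1.5-fold.

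Of 22 genes at common fragile sites, 4 fell in *Hmga2*+/+ MEF (18.2%, where 19.3% of all genes did) and 10 in *Hmga2*-/- MEF (45.5%, where 17.7% did), and 1 rose in each, not the same gene, with medians of −0.063 and −0.29. Those that fell in both were *Macrod2*, *Esrrg* and *Pard3b*. In *Wwox*, whose locus holds a well-known fragile site, RPKM were 2.097, 1.28, 1.95 and 1.49, and in *Immp2l* 0.581, 0.400, 0.654 and 0.418. *Immp2l* reached the limit only in the Ctrl libraries, so that its lower TGFB1 values were fixed by the limit. The most abundant of this list were *Foxp1*, *Exoc4* and *Mad1l1*, a gene of the mitotic spindle checkpoint with 18.8, 22.6, 20.6 and 22.9 RPKM. Because no replicate spread is known, the difference between 4 and 10 was not tested. Of 15 genes listed for RNA-binding proteins, 4 and 5 fell and 1, *Rbfox1*, rose in each genotype. Those that fell include *Ccser1* and *Ssbp2*, the latter also counted among the transcription and chromatin factors. Neither is an established RNA-binding protein gene, so these counts do not cover RNA-binding proteins only. The list leaves out *Bicc1*, which fell in both genotypes. *Rbms1* had 28.6, 28.6, 29.4 and 35.5 RPKM, *Rbfox2*, a splicing regulator, 22.8, 19.4, 22.3 and 18.7, and *Fto*, an RNA demethylase gene, 14.7, 12.0, 15.5 and 12.5. Of 22 genes of vesicle and organelle traffic, 4 and 8 fell and 3 rose in each, and *Ehbp1* fell in both with 20.7, 11.4, 23.1 and 11.6 RPKM. *Ap3b1* had 29.3, 24.3, 30.3 and 25.6 RPKM and *Exoc4* 20.2, 19.5, 23.5 and 23.2. Of 5 receptor-type phosphatases, *Ptprd* and *Ptprq* fell in both genotypes and *Ptprg* had 8.25, 16.0, 8.46 and 10.96 RPKM, *Ptprm* 18.6, 22.4, 18.9 and 24.5 and *Ptprk* 12.4, 11.5, 10.2 and 8.86.

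A list of 30 shorter genes for transcription elongation factors and topoisomerases was read for comparison. In *Hmga2*+/+ MEF 0 of 30 passed 1.5-fold, with a median log2 change of 0.096, and in *Hmga2*-/- MEF 1 of 30, *Cdc73* of the PAF1 complex, rose, with a median of 0.12. *Cdc73* had 8.02, 11.9, 8.32 and 13.1 RPKM, just under 1.5-fold in *Hmga2*+/+ MEF. The most abundant of the list were *Top2a*, a topoisomerase gene, with 143, 121, 131 and 114 RPKM, and *Ssrp1* and *Supt16*, both of the FACT complex, with 106, 132, 106 and 135 and with 102, 131, 113 and 131. Between genotypes 0 of the 30 passed 1.5-fold in Ctrl and 0 under TGFB1.

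Among the 10 longest genes after *Ptprd*, *Macrod2* (1994620 bases), which encodes a hydrolase of ADP-ribose, had 2.21, 1.46, 2.47 and 1.28 RPKM and fell in both genotypes, in *Hmga2*+/+ MEF by a log2 change of −0.60 that became −0.56 after rescaling and was then under 1.5-fold. The splicing factor gene *Rbfox1* (1527687 bases) rose, with 0.124, 0.823, 0.243 and 0.784 RPKM. Under TGFB1 *Rbfox1* was the only gene of 1 Mb or more past 1.5-fold upwards. It reached the limit only in the TGFB1 libraries, so that this rise was fixed by the limit. Of the 15 genes of that length, 6 fell in *Hmga2*+/+ and 7 in *Hmga2*-/- MEF. *Ccser1* had 1.36, 0.623, 1.77 and 0.751 RPKM and fell in both, and *Auts2*, a transcriptional regulator, had 2.45, 1.71, 2.67 and 1.38 and fell in *Hmga2*-/- MEF. *Magi2* (0.916, 0.900, 0.787 and 0.695), a scaffold protein gene, the cAMP phosphodiesterase gene *Pde4d* (3.67, 4.04, 4.33 and 5.01), the cGMP-dependent kinase gene *Prkg1* (1.27, 1.12, 1.44 and 1.19) and *Anks1b* (0.580, 0.842, 0.924 and 1.14) did not pass 1.5-fold under TGFB1. *Gm37240* (1391425 bases, 9.79, 12.9, 10.3 and 14.4 RPKM) started within 5 bases of a start that RefSeq lists for another gene, *Glt28d2*, so its reads may belong to more than 1 gene.

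The most abundant very long gene was *App* (uc007ztn.2, chr16:84954436-85173707, minus strand), the amyloid precursor protein gene, with 222, 174, 225 and 211 RPKM. It stayed within 1.5-fold in all 4 comparisons. *Bicc1*, an RNA-binding protein gene, fell in both genotypes with 83.4, 46.0, 82.2 and 45.2 RPKM, and the scaffold gene *Dlg1* had 33.6, 29.9, 34.3 and 30.3. Of the 10 most abundant, *Fbn1*, *Slit2* and *Ext1* rose and *Abi3bp* and *Bicc1* fell, in both genotypes, and 0 passed 1.5-fold between genotypes.

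Between genotypes fewer very long genes differed than under TGFB1, and in both directions they did so more often than genes in general. In Ctrl 41 of 544 were at least 1.5-fold higher (7.54%) and 27 lower (4.96%) in *Hmga2*-/- than in *Hmga2*+/+ MEF, where over all genes 3.32% were higher and 2.69% lower. Under TGFB1 34 were higher (6.25%) and 46 lower (8.46%), against 4.14% and 3.04% of all genes. The median log2 difference was 0.030 in Ctrl and −0.025 under TGFB1, beside −0.017 and 0.037 over all genes. Against shorter genes weighted to the same RPKM, the excess was 3.23 points for higher and 1.25 points for lower genes in Ctrl, and 1.04 and 4.53 points under TGFB1. The excess of higher genes under TGFB1 turned to −0.0506 points when very long genes that overlap each other were left out.

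Over the 464 very long genes at the limit in every library, 4.53% were higher and 3.23% lower in Ctrl, against 1.71% and 1.08% of shorter genes, and 3.45% and 5.39% under TGFB1, against 2.49% and 1.15%. In the longest class, 500 kb or more, 9 of 86 were lower and 8 higher in Ctrl, and 12 lower and 3 higher under TGFB1. The Ctrl and the TGFB1 comparison share no library. Of the 27 genes lower in Ctrl, 20 (74.1%) were also lower under TGFB1, 43.5% of those lower there, against 40.8% and 37.9% for shorter genes. Of the 41 higher in Ctrl, 22 were also higher under TGFB1, 53.7% and 64.7% of the numbers in Ctrl and under TGFB1, against 53.2% and 40.9% for shorter genes. These counts hold *Pcdha* genes that share exons and amount to 1 measurement, which raises the overlap. Without overlapping very long genes, 34 were higher in Ctrl and 27 under TGFB1. Of the 68 very long genes past 1.5-fold in Ctrl 0 were past it in the other direction under TGFB1, and of 637 shorter genes 30 were (4.71%).

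The largest deficits of *Hmga2*-/- MEF in Ctrl were those of *Reln* and *Kcnt2*. *Reln* (uc033ihv.1, chr5:21884454-22344705, minus strand), which encodes the secreted guidance protein reelin, had 2.54, 0.651, 0.493 and 0.190 RPKM, a log2 difference of −2.36 (interval −2.54 to −2.19) in Ctrl and −1.78 (−2.08 to −1.49) under TGFB1. *Kcnt2* (uc011wth.1, chr1:140246257-140610261, plus strand), a sodium-activated potassium channel, had 1.08, 0.742, 0.217 and 0.176 RPKM, with log2 differences of −2.32 and −2.08. Both genes reached the limit only in the *Hmga2*+/+ libraries. That each *Hmga2*-/- library was below each *Hmga2*+/+ library was thus fixed by the limit. *Adamts3* (uc012dyf.1, chr5:89673841-89883334, minus strand), a protease that trims procollagen, had 4.12, 1.56, 1.48 and 0.398 RPKM and was 2.79-fold lower in Ctrl and 3.93-fold lower under TGFB1. *Spock3* (uc009lur.1, chr8:62951232-63357096, plus strand), a matrix proteoglycan gene, had 1.39, 3.95, 0.599 and 1.24 RPKM, and it rose under TGFB1 in both genotypes from a lower level in *Hmga2*-/- MEF. *Nell2* (uc056zad.1, chr15:95075230-95528559, minus strand), which encodes a secreted axon guidance protein, had 2.95, 3.89, 1.53 and 1.02 RPKM. Under TGFB1 it was 1.32-fold the Ctrl level in *Hmga2*+/+ MEF and 0.663-fold in *Hmga2*-/- MEF, so its deficit went from 1.92-fold in Ctrl to 3.83-fold under TGFB1.

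*Tenm4*, a teneurin that acts in cell adhesion, had 2.75, 1.59, 1.36 and 0.644 RPKM, and *Adgrl3*, the adhesion receptor latrophilin-3, had 8.82, 6.76, 4.74 and 3.50. *Tmtc2* had 2.33, 1.21, 1.23 and 0.930 RPKM and was lower past 1.5-fold in Ctrl only, the difference under TGFB1 being −0.38 on the log2 scale. *Alcam*, an adhesion molecule of the immunoglobulin family, was the most abundant of these, with 13.6, 26.3, 7.84 and 11.6 RPKM. *Sox5*, a transcription factor gene, had 1.12, 0.732, 0.677 and 0.254 RPKM, but a *Sox5* transcript of 118681 bases held 197% as many reads, with log2 differences of −0.93 and −1.25.

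Higher in *Hmga2*-/- MEF was *Gpc3* (uc009teg.2, chrX:52272427-52613974, minus strand), a heparan sulfate proteoglycan of the cell surface that restrains growth, with 3.46, 1.67, 11.8 and 5.75 RPKM. It was 3.42-fold higher in Ctrl (log2 interval 1.62 to 1.93) and 3.44-fold higher under TGFB1 (1.56 to 2.01), and it fell by about the same factor under TGFB1 in both genotypes, 2.07-fold and 2.06-fold. *Pld5* (uc007dtw.1, chr1:175962306-176275312, minus strand), a member of the phospholipase D family, had 0.361, 0.177, 1.35 and 0.529 RPKM, from 72, 36, 272 and 107 reads. It reached the limit only in the *Hmga2*-/- libraries, so that higher values there were fixed by the limit. *Pcdha1* had 0.567, 0.236, 1.56 and 0.673 RPKM, and the values of *Pcdha2* to *Pcdha7* were nearly the same, since the 7 genes share their constant exons, so they amount to 1 measurement. *Gpc3* is on the X chromosome, which held 23 very long genes (4.23% of them, against 3.21% of shorter genes). *Xist* had 40.7, 51.6, 41.6 and 38.9 RPKM and the 4 genes of the Y chromosome that were checked at most 0.008, in both genotypes alike.

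**Figure D5:**
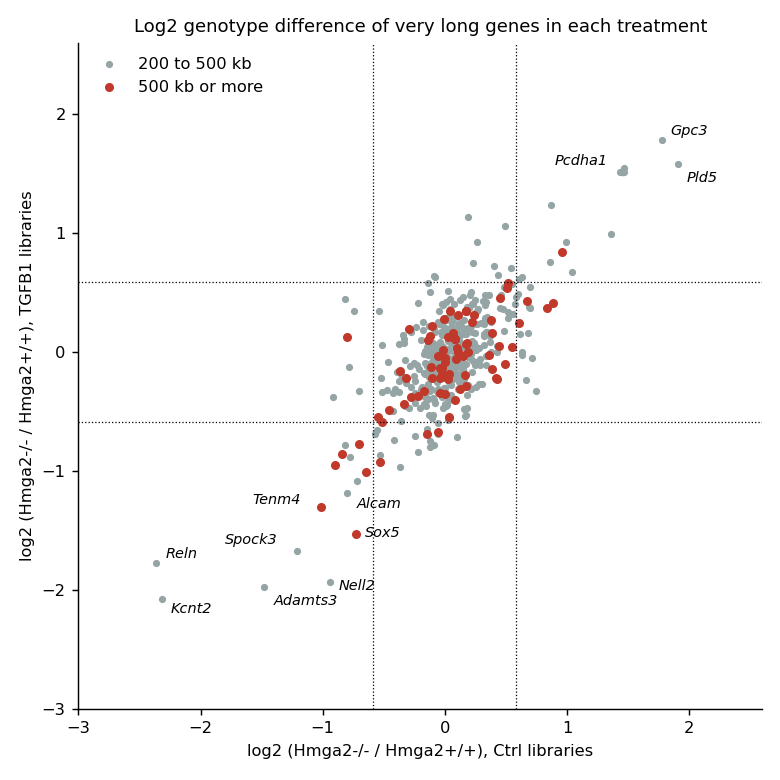
Log2 difference between *Hmga2*-/- and *Hmga2*+/+ MEF of the 509 very long genes with a mean of at least 0.5 RPKM, in Ctrl (x axis) and under TGFB1 (y axis). Each point is 1 gene, red for gene bodies of 500 kb or more, and dotted lines mark 1.5-fold. Most genes lie inside the lines, *Reln*, *Kcnt2*, *Adamts3* and *Nell2* lie at the lower left and *Gpc3*, *Pld5* and the overlapping *Pcdha* genes at the upper right.

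The lists stand here beside a background over all genes of 2.69% lower and 3.32% higher in Ctrl, and of 3.04% and 4.14% under TGFB1. Of the 544 very long genes, 4.96% were lower and 7.54% higher in Ctrl, and 8.46% and 6.25% under TGFB1. In the extracellular matrix list under TGFB1, 8 of 19 were lower (42.1%) and 1 was higher (5.26%) in *Hmga2*-/- MEF, with a median of −0.13. In Ctrl 2 of the list were lower, *Adamts3* and *Reln*. *Spock3*, which the list leaves out, was lower in both treatments. *Hmcn1* is an example of the other listed genes lower under TGFB1, with nearly equal Ctrl levels of 6.64 and 6.10 RPKM and TGFB1 levels of 1.35 and 0.778. *Adamts12* was the one that was higher, with 9.04 against 4.76 RPKM. Of the 26 adhesion and guidance genes 5 were lower and 3 higher in Ctrl, and 8 lower and 1 higher under TGFB1. *Alcam*, *Adgrl3*, *Tenm4*, *Cdh18* and *Cadm2* were lower in both. Among the 56 transcription and chromatin factors 4 and 6 were lower and 1 and 2 higher. *Gpc3* and *Hs6st3* were the genes higher in both treatments among the 13 for proteoglycans and glycans, and none was lower. Of the actin and adhesion site genes 5 were higher and 2 lower in Ctrl, and 2 and 2 under TGFB1. No regulator of small GTPases passed 1.5-fold in Ctrl and 3 were lower under TGFB1, and of the kinase and calcium signalling list 3 were higher and 1 lower in Ctrl and 3 and 3 under TGFB1. In the remaining lists, 2 of 22 fragile-site genes, *Thsd7a* and *Sdk1*, were lower under TGFB1 and 0 in Ctrl, 1 RNA-binding protein gene, *Rbfox1*, was higher in Ctrl, and 0 of 5 receptor-type phosphatases passed 1.5-fold. In the vesicle traffic list 2 were higher and 1 lower in Ctrl, and 1 and 2 under TGFB1.

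The TGFB1 response itself differed at least 1.5-fold between genotypes in 50 very long genes, with the log2 change lower in *Hmga2*-/- MEF in 32 (5.88%) and higher in 18 (3.31%), where over all genes 2.53% were lower and 3.44% higher. The median of the difference was −0.074 for very long genes and 0.049 for shorter genes. Among genes with a mean of at least 0.5 RPKM, *Zc3h12b* had the lowest difference (0.697, 0.693, 1.17 and 0.551 RPKM) and *Glis1* the highest (1.17, 0.569, 0.668 and 0.774), both chosen after their values were seen. *Glis1*, a zinc finger factor, fell under TGFB1 in the wild type alone, from a Ctrl level above the *Hmga2*-/- one, and the TGFB1 levels were 0.569 and 0.774 RPKM. *Reln* and *Chst11* were among the 13 with a higher change in *Hmga2*-/- MEF, and *Hmcn1*, *Nckap5*, *Nell2* and *Sox5* among the 24 with a lower one. With 1 library per condition these differences were not tested.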

How the data were processed

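The 4 libraries of *Hmga2*+/+ and *Hmga2*-/- MEF, 1 per condition, were used. Per the paper's methods and the table header, reads of 75 bases were trimmed (Trimmomatic) and aligned to mm10 (HISAT2 2.1.0), and the authors deposited RPKM from HOMER, counted over exons on the annotated strand of 63759 UCSC known transcripts. The other column used, also deposited by the authors, is exon length in bases. Whether the duplicates the paper speaks of were pooled is not given in the sources used here. Gene names came from GENCODE (release vM21), where a gene on that strand covered at least 50% of the transcript (57708 of 63759, 90.5%). The mapped reads of a library were derived as the number at which low RPKM give whole reads, which held for 100% of the values tested within 0.1 reads. Intervals are exact conditional binomial intervals of a ratio of reads. As in the paper, 0 RPKM was set to 0.001 and 1.5-fold was the threshold. Without replicates, no count test was run. Genes named are the 8 largest increases and decreases of each comparison with a mean of at least 0.5 RPKM, the 10 longest, the 10 most abundant and the 3 most abundant of each list, and further list members as examples chosen after their values were seen. Genes past the fold in opposite directions under TGFB1 were to be named too, and there were 0. The members and lists were chosen with earlier results of these data known. Steps were tested on simulated data. Python 3.11.15, numpy 2.4.6, pandas 2.3.3, scipy 1.17.1 and matplotlib 3.10.9 were used.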

Additional observations from a re-analysis of the deposited data

Results flagged for a closer look

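The results below moved in opposite directions between genotypes or between treatments. With 1 library on each side the differences were not tested, and apart from *Nell2* none of the single values passed 1.5-fold. The median log2 difference between *Hmga2*-/- and *Hmga2*+/+ MEF over very long genes was 0.030 in Ctrl and −0.025 under TGFB1. The remaining values are of named genes whose counting intervals lay on opposite sides of 0. The log2 TGFB1 change in *Hmga2*+/+ and *Hmga2*-/- MEF was 0.40 and −0.59 for *Nell2*, 0.13 and −0.26 for *Fer*, −0.12 and 0.24 for *Ghr*, and −0.11 and 0.064 for *Plxdc2*. The log2 genotype difference in Ctrl and under TGFB1 was 0.29 and −0.062 for *Asap1*, 0.15 and −0.11 for *Fbn1*, 0.22 and −0.17 for *Fer*, −0.12 and 0.14 for *Foxp1*, −0.18 and 0.19 for *Ghr*, −0.33 and 0.10 for *Kif26b*, and 0.22 and −0.072 for *Trio*. Both contrasts of 1 gene use the same 4 libraries.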

How the results depend on the processing

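No paired analysis was possible because each condition has a single library, and no replicate could be left out. Of 304 recomputed shares, medians and differences, 241 were counted as unmoved. For shares and medians this meant staying within a 95% interval of the reported value taken over genes. Differences from shorter genes were judged by the width of the interval of the very long genes alone. Genes are not replicates of a condition, so this sorting does not measure spread between libraries. With a pseudocount of 1, the share higher was 8.82% (TGFB1 in *Hmga2*+/+), 7.90% (TGFB1 in *Hmga2*-/-), 3.31% (genotype in Ctrl) and 1.29% (genotype under TGFB1). The share lower was 14.7% (TGFB1 in *Hmga2*+/+), 20.0% (TGFB1 in *Hmga2*-/-), 2.02% (genotype in Ctrl) and 2.21% (genotype under TGFB1). The median log2 was −0.16 (TGFB1 in *Hmga2*-/-). The excess of lower genes over shorter ones was 1.66 points (genotype under TGFB1). With no limit on RPKM, the share higher was 14.7% (TGFB1 in *Hmga2*-/-), 13.2% (genotype in Ctrl) and 12.2% (genotype under TGFB1). The share lower was 13.2% (genotype in Ctrl) and 15.3% (genotype under TGFB1). The median log2 was 0 (TGFB1 in *Hmga2*+/+), −0.071 (TGFB1 in *Hmga2*-/-) and 0 (genotype in Ctrl). The excess of higher genes over shorter ones was 1.79 points (TGFB1 in *Hmga2*-/-). The excess of lower genes over shorter ones was 4.54 points (genotype in Ctrl) and 6.94 points (genotype under TGFB1). The median difference from shorter genes was −0.071 (TGFB1 in *Hmga2*-/-), 0 (genotype in Ctrl) and 0 (genotype under TGFB1). After rescaling to the median ratio of genes, the median log2 was 0.061 (genotype in Ctrl). At a threshold of 2-fold, the share higher was 7.17% (TGFB1 in *Hmga2*+/+), 7.54% (TGFB1 in *Hmga2*-/-), 2.76% (genotype in Ctrl) and 2.94% (genotype under TGFB1). The share lower was 15.4% (TGFB1 in *Hmga2*+/+), 17.3% (TGFB1 in *Hmga2*-/-), 1.65% (genotype in Ctrl) and 3.12% (genotype under TGFB1). The excess of higher genes over shorter ones was 1.49 points (TGFB1 in *Hmga2*-/-) and 0.959 points (genotype in Ctrl). The excess of lower genes over shorter ones was 6.51 points (TGFB1 in *Hmga2*-/-) and 1.71 points (genotype under TGFB1). For gene bodies of at least 100 kb, the share lower was 21.7% (TGFB1 in *Hmga2*+/+), 24.6% (TGFB1 in *Hmga2*-/-) and 5.55% (genotype under TGFB1). The median log2 was −0.082 (TGFB1 in *Hmga2*+/+) and −0.099 (TGFB1 in *Hmga2*-/-). For gene bodies of at least 500 kb, the share higher was 3.49% (genotype under TGFB1). The share lower was 38.4% (TGFB1 in *Hmga2*+/+), 44.2% (TGFB1 in *Hmga2*-/-), 10.5% (genotype in Ctrl) and 13.95% (genotype under TGFB1). The median log2 was −0.39 (TGFB1 in *Hmga2*+/+) and −0.48 (TGFB1 in *Hmga2*-/-). Without overlapping very long genes, the excess of higher genes over shorter ones was −0.0506 points (genotype under TGFB1). For very long genes with no shorter transcript, the share higher was 12.0% (genotype in Ctrl) and 10.8% (genotype under TGFB1). The share lower was 32.3% (TGFB1 in *Hmga2*+/+) and 37.1% (TGFB1 in *Hmga2*-/-). The median log2 was −0.28 (TGFB1 in *Hmga2*+/+), −0.31 (TGFB1 in *Hmga2*-/-) and 0.065 (genotype in Ctrl). The excess of higher genes over shorter ones was 7.10 points (genotype in Ctrl) and 5.26 points (genotype under TGFB1). The excess of lower genes over shorter ones was 8.46 points (TGFB1 in *Hmga2*+/+). The median difference from shorter genes was −0.14 (TGFB1 in *Hmga2*+/+), −0.24 (TGFB1 in *Hmga2*-/-) and 0.096 (genotype in Ctrl). The difference in genes higher under TGFB1 in *Hmga2*-/- MEF turned sign at 2-fold and with no limit on RPKM, and that between genotypes under TGFB1 without overlapping genes, and no other of these values turned. The cause was not tested. Of 447 recomputed log2 changes of named genes, 427 stayed within their counting interval, 20 moved, and 0 of those past 1.5-fold changed sign. Changes near 0 turned sign in 3, *Magi2* and *Rbms1* in *Hmga2*+/+ MEF after rescaling and *Dock1* in *Hmga2*-/- MEF with another transcript, and 3 crossed 1.5-fold, 1 of *Ltbp1* and 2 of *Macrod2*. The alternatives on overlapping genes, shorter transcripts, unnamed loci and protein-coding genes were chosen after seeing the data. A pseudocount shrinks changes of weakly expressed genes, and depth limits the genes with few reads.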
